A study of Homo sapiens with 12 samples.

Results

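The transcripts described here are those of 10 carriers that move amino acids or creatine across the plasma membrane, SLC7A5, SLC7A1, SLC7A6, SLC1A4, SLC1A5, SLC38A1, SLC38A2, SLC6A9, SLC6A8 and SLC43A1. They were chosen by name, as carriers of neutral and cationic amino acids and the creatine carrier SLC6A8, and the naming rule uses no measured value, although earlier results of these data were known when the carriers were chosen. All 10 were found by their Entrez identifiers among the 26258 genes of the expression table. Of the 10, 9 passed the filter on low values and were tested, and SLC43A1 did not.

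Cells take up amino acids through carriers that differ in substrate and in driving force. The sodium-coupled carriers SLC38A1 and SLC38A2 concentrate glutamine and alanine in the cell, and exchangers such as SLC1A5 and SLC7A5 then trade one amino acid for another, so that glutamine can leave as leucine enters. Leucine, which arrives in this way, and arginine are signals for mTORC1, the kinase complex that couples nutrients to growth. ATF4 is a transcription factor that cells make when amino acids run short or when the endoplasmic reticulum is stressed, and genes for amino acid carriers and for amino acid synthesis are well known among its targets. YAP and TAZ are coactivators that act mainly through the TEAD transcription factors.

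HLE cells, a human hepatocellular carcinoma line, received 1 of 3 siRNA treatments: a non-targeting control (siCtrl), a joint knockdown of YAP and TAZ (siY/T), or a knockdown of ATF4 (siATF4). Each treatment was combined with DMSO, the vehicle, or Sorafenib (Srf), a multikinase inhibitor used against this cancer, at 5 µM according to the labels. This gave 6 groups of 2 libraries, siCtrl DMSO, siY/T DMSO, siATF4 DMSO, siCtrl Srf, siY/T Srf and siATF4 Srf. All groups come from 1 cell line grown in medium with added glutamine and serum, none was left without transfection, and neither the number of siRNA sequences nor the time in Sorafenib is given in the labels. Nothing in the labels says that the libraries of a group came from separate cultures. The study's methods describe biological replicates, in a number that differs from the labels. The p-values measure the spread between these libraries, which may be technical.

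Levels are given as CPM, counts scaled to 1000000 gene-assigned reads in each library, and the libraries held 41408348 to 53619732 such reads. The siRNA targets followed the labels. YAP1 (encoding YAP) was at 46.6 to 57.7 CPM in the 4 siY/T libraries and at 236 to 279.9 CPM in the other 8, and WWTR1 (encoding TAZ) was at 49.3 to 68.6 CPM against 104 to 173 CPM. ATF4 was at 84.5 to 101 CPM in the 4 siATF4 libraries and at 197 to 492 CPM elsewhere, the highest values being those of siCtrl Srf. WWTR1 was itself lower with siATF4 in DMSO (log2 fold change -0.70), and ATF4 was lower with siY/T in Sorafenib (-0.63), both past the thresholds given below. Of 8 hepatocyte markers, 7 including ALB, APOA1 and HNF4A stayed at or below 0.117 CPM in every library, so that the liver identity of the line cannot be read from them, while KRT8 (655 to 2558 CPM) and VIM (1952 to 2916 CPM) were abundant. The summed level of the epithelial markers, mostly KRT8 and KRT18, was 978 to 1025 CPM in siY/T DMSO and 3223 to 3333 CPM in siCtrl DMSO. Both keratins were lower with siY/T in DMSO (log2 fold changes -1.74 and -1.65). The epithelial marker CDH1, at most 7.93 CPM, was higher there (1.02). CD68, a lysosomal protein used as a macrophage marker, carried the sum of the blood and endothelial markers from 19.8 to 21.1 CPM in siCtrl DMSO up to 72.0 to 75.1 CPM in siATF4 DMSO. The defining markers PTPRC and PECAM1 were at or below 0.0403 CPM throughout. The part of these shifts in the results on the carriers was not tested.

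Which carriers dominate is seen when the level is divided by transcript length. Per kilobase of the canonical transcript, the system A carrier SLC38A2 was highest in siCtrl DMSO with 156 CPM per kb, followed by the glutamine exchanger SLC1A5 with 91.7, and together they made up 45.3% and 26.6% of the summed level of the 10. SLC38A1 (27.5 CPM per kb), SLC7A5 (23.6) and SLC7A1 (21.3) formed a middle tier. SLC7A6 (9.84) and SLC1A4 (8.70) came next, and SLC6A9 (3.10) and SLC6A8 (2.92) were low and had overlapping libraries. SLC43A1 was at 0.039 CPM per kb, from 3 and 7 reads.

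The order was not the same in all groups. SLC7A5 stood at the fourth place in siCtrl DMSO and at the seventh in siY/T DMSO, where its mean was 7.23 CPM per kb. In siATF4 DMSO the libraries of SLC38A2 (129 and 135 CPM per kb) and of SLC1A5 (129.8 and 129 CPM per kb) overlapped, and the same was true of SLC38A1 and SLC7A1. In siATF4 Srf the mean of SLC1A5 (101 CPM per kb) lay above that of SLC38A2 (94.7), with overlapping libraries. Divided by the summed length of all annotated exons in place of the canonical transcript, SLC38A2 and SLC1A5 remained the leading pair in all 6 groups, SLC1A5 was ahead of SLC38A2 in both siATF4 groups without overlap, SLC7A5 and SLC38A1 overlapped in siCtrl DMSO, and SLC7A5 was at the fifth place in siY/T DMSO, where it overlapped with SLC7A6.

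**Figure D1:**
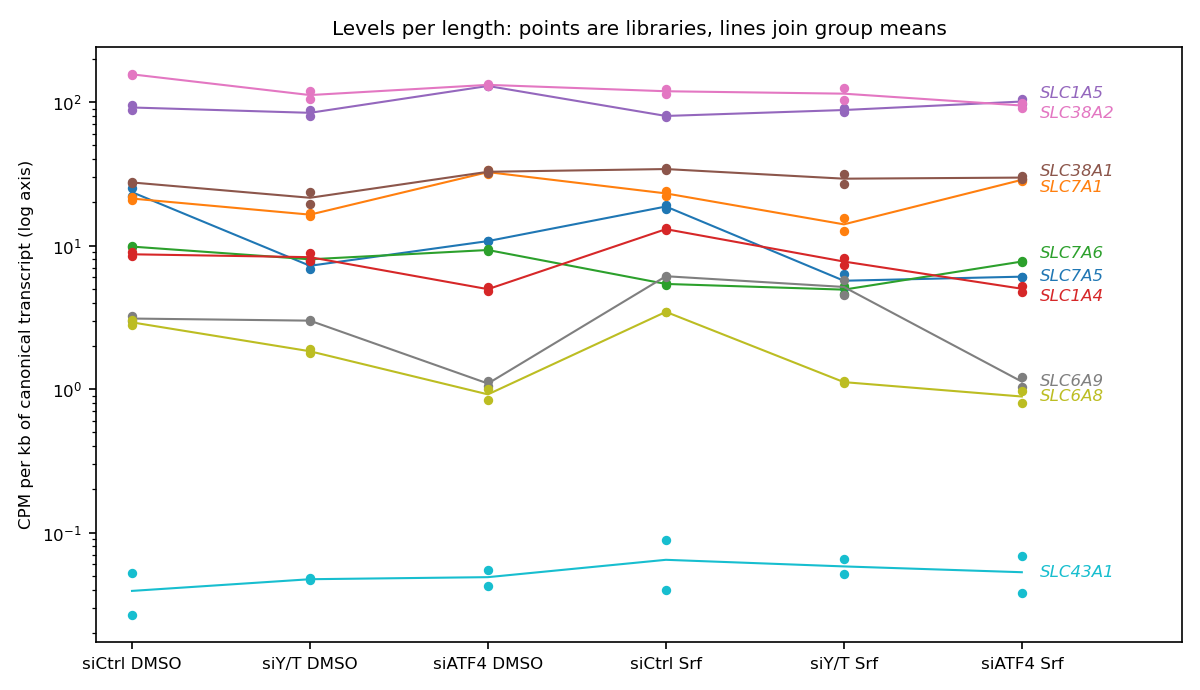
CPM per kilobase of canonical transcript (vertical axis, logarithmic) of the 10 carriers in the 6 groups (horizontal axis); points are libraries and lines join group means. SLC38A2 and SLC1A5 are the highest in every group, SLC43A1 is the lowest in every group, and SLC7A5 goes from 23.6 in siCtrl DMSO to 7.23 in siY/T DMSO.

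The sequence upstream of the carrier genes was read for the element through which ATF4 is known to act. The C/EBP-ATF response element has the core TGATGNAA, and the window searched was 250 bases before to 50 bases after each annotated start in RefSeq on GRCh38.p14, on both strands. The 10 genes have 15 such windows, of which 4 held the core, those of SLC1A4, SLC1A5, SLC38A1 and SLC7A1, compared with 3.62% of all 35116 windows. The form TGATGCAA, which is included in the core, was found in 2 of the 15, those of SLC1A4 and SLC1A5, and in 0.866% of all windows. GGAATG, the site of the TEAD factors, was in 1 of the 15 windows, that of SLC1A5, and in 14.03% of all windows. The stretches from 120 bases before to 20 bases after the start are given for SLC1A4, SLC1A5 and SLC7A1. These carriers share the core, as TGATGCAA in SLC1A4 and SLC1A5 and as TGATGAAA after the start in SLC7A1. Their log2 fold changes with siATF4 differed, and that of SLC1A5 did not pass the thresholds given below. The stretch of SLC7A5 is given because it responded strongly without the element in its window, and that of SLC38A1 is not shown. They are written 5′ to 3′ in the direction of the gene, with the match to the core in capitals, and in SLC1A4 the match is on the opposite strand and so appears reversed and complemented.
SLC1A4 (chr2:64989279-64989418, plus strand): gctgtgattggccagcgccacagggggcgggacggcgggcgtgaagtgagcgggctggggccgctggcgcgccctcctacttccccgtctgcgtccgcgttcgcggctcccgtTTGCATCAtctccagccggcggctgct
SLC1A5 (chr19:46784795-46784934, minus strand): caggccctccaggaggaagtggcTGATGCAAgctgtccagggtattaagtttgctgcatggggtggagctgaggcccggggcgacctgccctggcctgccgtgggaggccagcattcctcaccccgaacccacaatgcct
SLC7A1 (chr13:29595669-29595808, minus strand): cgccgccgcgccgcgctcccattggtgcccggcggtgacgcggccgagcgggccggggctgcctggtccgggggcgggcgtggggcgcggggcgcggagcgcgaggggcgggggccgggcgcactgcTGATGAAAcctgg
SLC7A5 (chr16:87869488-87869627, minus strand): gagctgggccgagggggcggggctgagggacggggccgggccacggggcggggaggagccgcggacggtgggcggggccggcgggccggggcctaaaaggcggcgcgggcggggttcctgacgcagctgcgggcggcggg
The windows of SLC1A4, SLC7A1 and SLC7A5 shown begin their canonical transcripts, whereas that of SLC1A5 belongs to a shorter transcript and the window of its canonical start held no match. The match of SLC38A1 also lay in a window that does not begin its canonical transcript. A match says only that these letters are present, and the absence of one says nothing of sites elsewhere in a gene.

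The test was that of limma, applied to log2(CPM + 0.5) of the 13515 genes that reached 1 CPM in 2 or more libraries, in 1 fit of the 12 libraries. A carrier is said to have risen or fallen where the unadjusted two-sided P was under 0.05 and the absolute log2 fold change at least 0.58, the thresholds of the study's methods. Adjusted p-values are those of limma with Benjamini-Hochberg adjustment over all genes tested. The comparisons of siY/T and of siATF4 with siCtrl share their siCtrl libraries and are given side by side. Shares of all genes that fell or rose are of genes past both thresholds. No such share was taken at P under 0.05 alone, so counts at that P have no background beside them. In libraries from bulk RNA, a lower level in all cells cannot be told apart from a loss in some of the cells.

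SLC7A5 and SLC6A8 were the carriers that fell with both siRNAs and in both media. SLC6A9 fell with siATF4 and did not pass the thresholds with siY/T. SLC1A4 fell with siATF4 in both media and with siY/T in Sorafenib. SLC7A1 went in opposite directions, rising with siATF4 in DMSO and falling with siY/T in Sorafenib. SLC7A6, SLC1A5, SLC38A1 and SLC38A2 passed the thresholds in none of the 4 comparisons with siCtrl.

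**Figure D2:**
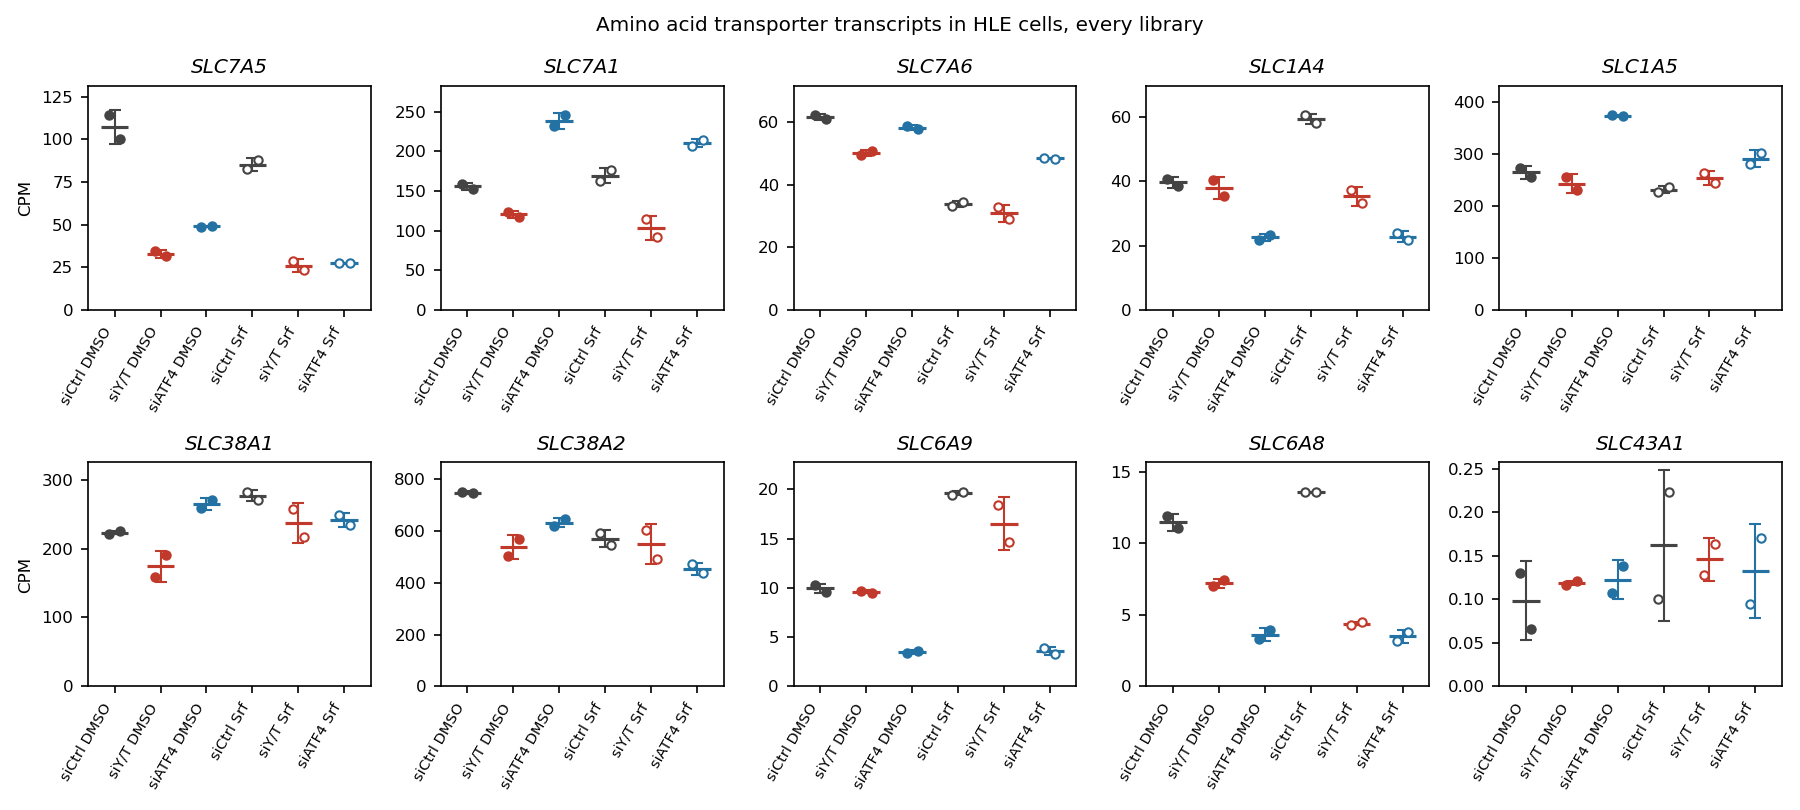
CPM of each carrier (vertical axes, starting at 0 and scaled per gene) in the 6 groups (horizontal axes); points are the 2 libraries, filled in DMSO and open in Sorafenib, and bars give the mean and SD. SLC7A5 is at 100.5 and 114 CPM in siCtrl DMSO and below 50 CPM in all 8 libraries of siY/T and siATF4, and SLC6A9 is below 4 CPM only in the siATF4 libraries.

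The system L carrier SLC7A5 (Entrez 8140, LAT1) exchanges intracellular glutamine for leucine and other large neutral amino acids. On GRCh37 it lies on chromosome 16 from 87863629 to 87903113 on the minus strand, with 10 exons in its canonical transcript. SLC7A5 was at 114 and 100.5 CPM in siCtrl DMSO (107 ± 9.73, SD, n = 2), 34.5 and 31.4 CPM in siY/T DMSO and 48.8 and 49.1 CPM in siATF4 DMSO. With Sorafenib it was 82.5 and 88.0 CPM in siCtrl, 28.7 and 23.2 CPM in siY/T and 27.7 CPM in both siATF4 libraries. All libraries of the depleted cells lay below those of siCtrl in the same medium. In DMSO siY/T changed it by -1.69 on the log2 scale (SE 0.088, adjusted p = 1.09e-08 from limma) and siATF4 by -1.12 (adjusted p = 1.38e-07 from limma). Under Sorafenib the changes were -1.71 with siY/T and -1.61 with siATF4, 3.26-fold and 3.04-fold lower. SLC7A5 was lower in siY/T than in siATF4 cells in DMSO with a log2 fold change of -0.57, just short of the threshold, which it passed with TMM scaling (-0.63), quantile normalization (-0.63), edgeR (-0.64) and DESeq2 (-0.65). In Sorafenib that difference was -0.10 in Sorafenib with a 95% interval from -0.29 to 0.09.

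With Sorafenib against DMSO the SLC7A5 log2 fold change was -0.33 with siCtrl and -0.35 with siY/T, neither past the threshold, and it fell by 0.81 on the log2 scale in siATF4 cells. The effect of siATF4 was 0.48 more negative in Sorafenib than under the vehicle (standard error 0.124, adjusted p = 0.00779 from limma), whereas for siY/T the difference of effects was -0.02 with a 95% interval from -0.29 to 0.25. Reads of the pseudogenes SLC7A5P1 and SLC7A5P2, near-identical copies, were at most 0.235 and 1.63 CPM. Multiply mapped reads were left out by the authors, so reads shared by the copies are not in these values.

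SLC7A6 (Entrez 9057), which exchanges cationic against neutral amino acids, lies on chromosome 16 from 68298419 to 68335726 on the plus strand. Its level was 62.2 and 60.9 CPM in siCtrl DMSO, 49.6 and 50.8 in siY/T DMSO and 58.9 and 57.7 in siATF4 DMSO. With Sorafenib it was 33.2 and 34.4 CPM in siCtrl, 32.8 and 28.9 CPM in siY/T and 48.5 and 48.3 CPM in siATF4. SLC7A6 thus fell with Sorafenib by 0.86 on the log2 scale in siCtrl cells (standard error 0.057, adjusted p = 7.08e-08 from limma) and by 0.70 in siY/T cells. In siATF4 cells the change was -0.26, short of the threshold. The effect of siATF4 was 0.59 higher in Sorafenib than under the vehicle (standard error 0.081, adjusted p = 0.000113 from limma), the most significant of such differences among the 9 carriers. The gene SLC7A6OS overlaps SLC7A6 on the opposite strand and was at 14.7 to 22.1 CPM, and the counting is not stated to use strand.

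SLC7A5 and SLC7A6 are light chains that reach the membrane only when joined to the heavy chain SLC3A2. SLC3A2 was at 139 and 141 CPM in siCtrl DMSO and was higher in every other library, up to 239 CPM in siATF4 Srf. It rose with siATF4 in DMSO (log2 fold change 0.63, standard error 0.055, adjusted p = 4.15e-07 from limma), and its other changes against siCtrl stayed under the threshold. Per kilobase, SLC7A5 was at 0.339 and 0.294 of SLC3A2 in siCtrl DMSO, at 0.0781 and 0.0780 in siY/T DMSO and at 0.0946 and 0.0924 in siATF4 DMSO. In Sorafenib this ratio was 0.177 and 0.174 in siCtrl, 0.0538 and 0.0441 in siY/T and 0.0516 and 0.0478 in siATF4. The ratio was lowest in the Sorafenib libraries of both depletions, and it was higher than that of SLC7A6 to SLC3A2 in every library except those of siY/T DMSO and siATF4 Srf. The size of the ratio depends on the transcript lengths chosen, and its change between groups does not. These ratios are descriptions and were given no test.

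**Figure D3:**
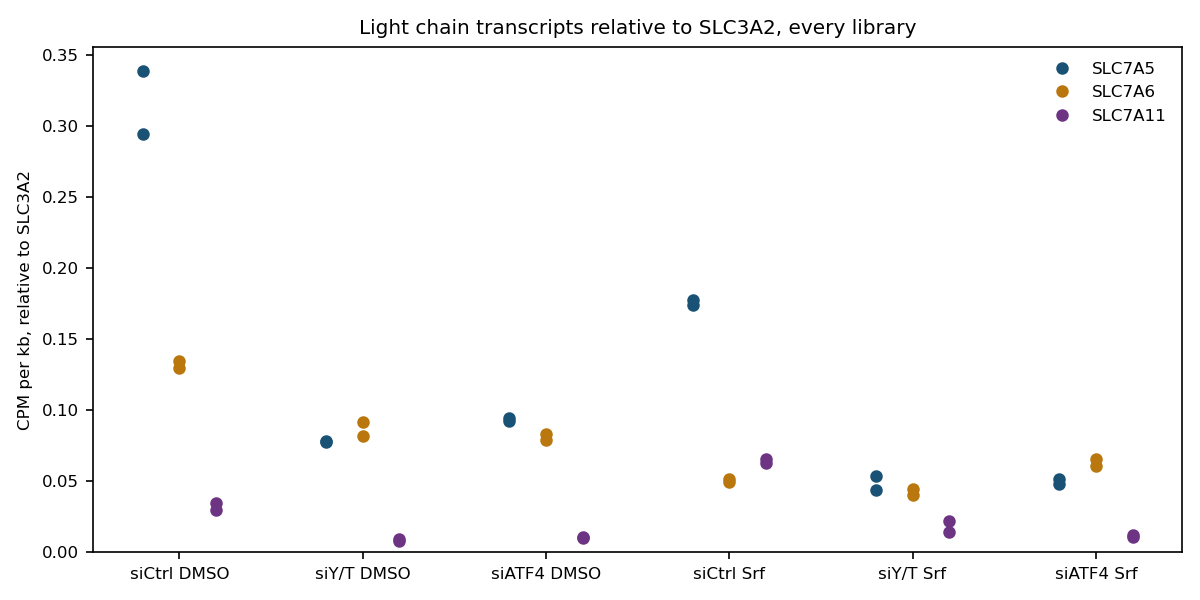
CPM per kilobase of SLC7A5, SLC7A6 and the cystine carrier SLC7A11, each divided by that of their heavy chain SLC3A2 in the same library (vertical axis), in the 6 groups (horizontal axis); each point is a library. SLC7A5 is at 0.294 and 0.339 in siCtrl DMSO and between 0.0441 and 0.0946 in the 8 libraries of depleted cells, and SLC7A11 is highest in siCtrl Srf.

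The other carrier of large neutral amino acids, SLC43A1 (Entrez 8501, LAT3), lies on chromosome 11 from 57252007 to 57283253. It had between 3 and 11 reads in a library, 0.0666 to 0.224 CPM, and the lowest and the highest of these were both siCtrl libraries. At this depth no change of SLC43A1 was detectable.

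SLC7A1 (Entrez 6541, CAT1), the main carrier of arginine and lysine, lies on chromosome 13 (minus strand, 30083551 to 30169825). SLC7A1 was at 159 and 153 CPM in siCtrl DMSO, 124 and 117 CPM in siY/T DMSO and 232 and 246 CPM in siATF4 DMSO. In Sorafenib it was 163 and 176 CPM in siCtrl, 114 and 92.3 CPM in siY/T and 207 and 214 CPM in siATF4. In both media the siY/T libraries were the lowest and the siATF4 libraries the highest, without overlap. SLC7A1 rose with siATF4 in DMSO by 0.61 (standard error 0.078, adjusted p = 1.35e-05 from limma) and fell with siY/T in Sorafenib by 0.72 (adjusted p = 7.87e-06 from limma). Both calls rest near the threshold: without the second siATF4 DMSO library the rise was 0.57, and without the second siY/T Srf library the log2 fold change was -0.57. Compared directly, SLC7A1 was lower in siY/T than in siATF4 cells by 0.98 in DMSO and by 1.03 in Sorafenib, 1.97-fold and 2.05-fold.

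SLC1A4 (Entrez 6509, ASCT1) exchanges alanine, serine, cysteine and threonine and lies on chromosome 2 from 65215611 to 65250999 on the plus strand. Its level was 40.9 and 38.5 CPM in siCtrl DMSO, 40.4 and 35.4 CPM in siY/T DMSO and 21.9 and 23.4 CPM in siATF4 DMSO. In Sorafenib it was 60.6 and 58.2 CPM in siCtrl, 37.3 and 33.3 CPM in siY/T and 24.0 and 21.6 CPM in siATF4. The Sorafenib libraries of siCtrl were the highest of all, while the siY/T and siATF4 libraries in Sorafenib overlapped with their DMSO libraries. SLC1A4 fell with siATF4 by 0.79 with DMSO (SE 0.078, adjusted p = 1.13e-06 in limma) and by 1.36 in Sorafenib (adjusted p = 4.84e-09 from limma). With siY/T it fell by 0.74 in Sorafenib (adjusted p = 5.98e-06 from limma), and in DMSO the log2 fold change was -0.07 with overlapping libraries. With Sorafenib in siCtrl cells the log2 fold change was 0.576 (adjusted p = 2.94e-05 from limma), just under the threshold of 0.58, and it passed without the first siCtrl DMSO library (0.62) or the second siCtrl Srf library (0.60). Both differences between effects were past their threshold, -0.68 for siY/T (adjusted p = 0.00135 from limma) and -0.57 for siATF4 (adjusted p = 0.00136 from limma).

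SLC1A5 (Entrez 6510, ASCT2), from the same family and known as a glutamine exchanger of growing cells, lies on chromosome 19 (minus strand, 47278140 to 47291851). SLC1A5 was at 274 and 255 CPM in siCtrl DMSO, 255 and 229.9 CPM in siY/T DMSO and 374 and 373 CPM in siATF4 DMSO. In Sorafenib it was 226 and 235 CPM in siCtrl, 263 and 244 CPM in siY/T and 279.6 and 302 CPM in siATF4. In both media the siATF4 libraries were the highest, with log2 fold changes against siCtrl of 0.50 and 0.33 that did not reach 0.58 (standard error 0.059, adjusted p = 6.66e-06 and 0.000201 from limma). SLC1A4 and SLC1A5 both had TGATGCAA in the window of an annotated start, which for SLC1A5 is not that of its canonical transcript. Their log2 fold changes with siATF4 were of opposite sign, -0.79 and 0.50 in DMSO. The part of the element in these changes was not tested. SLC1A5 was lower in siY/T than in siATF4 cells in DMSO by 0.62, and the call was lost without the second siY/T DMSO library, with a log2 fold change of -0.55. Because SLC7A5 fell and SLC1A5 did not, the ratio of SLC1A5 to SLC7A5 per kilobase went from 3.78 and 4.01 in siCtrl DMSO to 11.7 and 11.6 in siY/T DMSO and to 12.1 and 11.99 in siATF4 DMSO, a description with no test.

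The system A carriers SLC38A1 (Entrez 81539) and SLC38A2 (Entrez 54407) lie on chromosome 12 of GRCh37, from 46576846 to 46663800 and from 46751971 to 46766556, both on the minus strand. SLC38A2 is known to be induced when amino acids are withdrawn. Its level was 752 and 745 CPM in siCtrl DMSO, 504 and 569 CPM in siY/T DMSO and 619 and 645 CPM in siATF4 DMSO. In Sorafenib SLC38A2 was at 594 and 547 CPM in siCtrl, 604 and 494 CPM in siY/T and 471 and 437 CPM in siATF4. The siCtrl DMSO libraries were the highest, and no comparison passed the threshold of 0.58. The largest log2 fold changes of SLC38A2 were -0.48 with siY/T under DMSO (SE 0.082, adjusted p = 0.000237 from limma) and -0.48 with Sorafenib in siATF4 cells (adjusted p = 0.000372 from limma). The siY/T effect was 0.42 less negative in Sorafenib than in DMSO (adjusted p = 0.0224 from limma).

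SLC38A1 was at 221 and 225 CPM in siCtrl DMSO, 158 and 190.4 CPM in siY/T DMSO and 259 and 271 CPM in siATF4 DMSO. In Sorafenib SLC38A1 was at 282 and 271 CPM in siCtrl, 257 and 217 CPM in siY/T and 248 and 234 CPM in siATF4. Against siCtrl its log2 fold changes lay between -0.36 and 0.25. In DMSO it was lower in siY/T than in siATF4 cells by 0.61 (standard error 0.083, adjusted p = 1.56e-05 from limma), a call lost without the first siY/T DMSO library (-0.47) or the second siATF4 DMSO library (-0.57). The siATF4 effect changed sign between the media, from 0.25 in DMSO to -0.20 in Sorafenib, and this difference of -0.44 passed its test (adjusted p = 0.00891 from limma).

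SLC6A9 (Entrez 6536, GlyT1), a sodium- and chloride-coupled glycine carrier, lies on chromosome 1 (minus strand, 44457172 to 44497139). SLC6A9 was at 10.3 and 9.61 CPM in siCtrl DMSO, 9.73 and 9.49 CPM in siY/T DMSO and 3.36 and 3.64 CPM in siATF4 DMSO. In Sorafenib it was 19.5 and 19.8 CPM in siCtrl, 18.4 and 14.6 CPM in siY/T and 3.89 and 3.34 CPM in siATF4. The 4 siATF4 libraries were the lowest whatever the medium, and they were based on 156 reads or more. In DMSO siATF4 changed SLC6A9 by -1.38 on the log2 scale (SE 0.103, adjusted p = 8.53e-08 from limma). Under Sorafenib the change was -2.29 (adjusted p = 5.2e-10 from limma), a level 4.90-fold lower and the largest fall among the 9 carriers. It rose with Sorafenib by 0.95 after siCtrl (adjusted p = 4.37e-06 from limma) and by 0.74 after siY/T (adjusted p = 6.64e-05 from limma), and the latter was 0.58, just under the threshold, without the first siY/T Srf library. In siATF4 cells the log2 fold change with Sorafenib was 0.04 with a 95% interval from -0.19 to 0.26. The siATF4 effect differed between the media by -0.91 (adjusted p = 0.000349 from limma), and the siY/T effect by -0.21 (adjusted p = 0.334 from limma).

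SLC6A8 (Entrez 6535), which imports creatine and is no amino acid carrier in the strict sense, lies on chromosome X from 152953381 to 152962043 on the plus strand. Its level was 11.9 and 11.1 CPM in siCtrl DMSO, 6.98 and 7.44 CPM in siY/T DMSO and 3.28 and 3.94 CPM in siATF4 DMSO. In Sorafenib it was 13.5 and 13.6 CPM in siCtrl, 4.30 and 4.49 CPM in siY/T and 3.17 and 3.81 CPM in siATF4. In each medium the order was siCtrl, siY/T and siATF4 without overlap. SLC6A8 fell with siATF4 by 1.55 in DMSO and by 1.82 in Sorafenib (standard error 0.101, adjusted p = 2.41e-08 and 3.42e-09 from limma). With siY/T it fell by 0.63 in DMSO and by 1.52 in Sorafenib (adjusted p = 0.000132 and 1.08e-07 from limma). This difference of -0.89 between the media was past its test (standard error 0.142, adjusted p = 0.00115 from limma), and it was the largest for siY/T among the 9 carriers. Sorafenib lowered SLC6A8 in siY/T cells (-0.66), and in siCtrl cells the log2 fold change was 0.23. The pseudogene SLC6A10P, a near-identical copy, had at most 0.488 CPM.

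**Figure D4:**
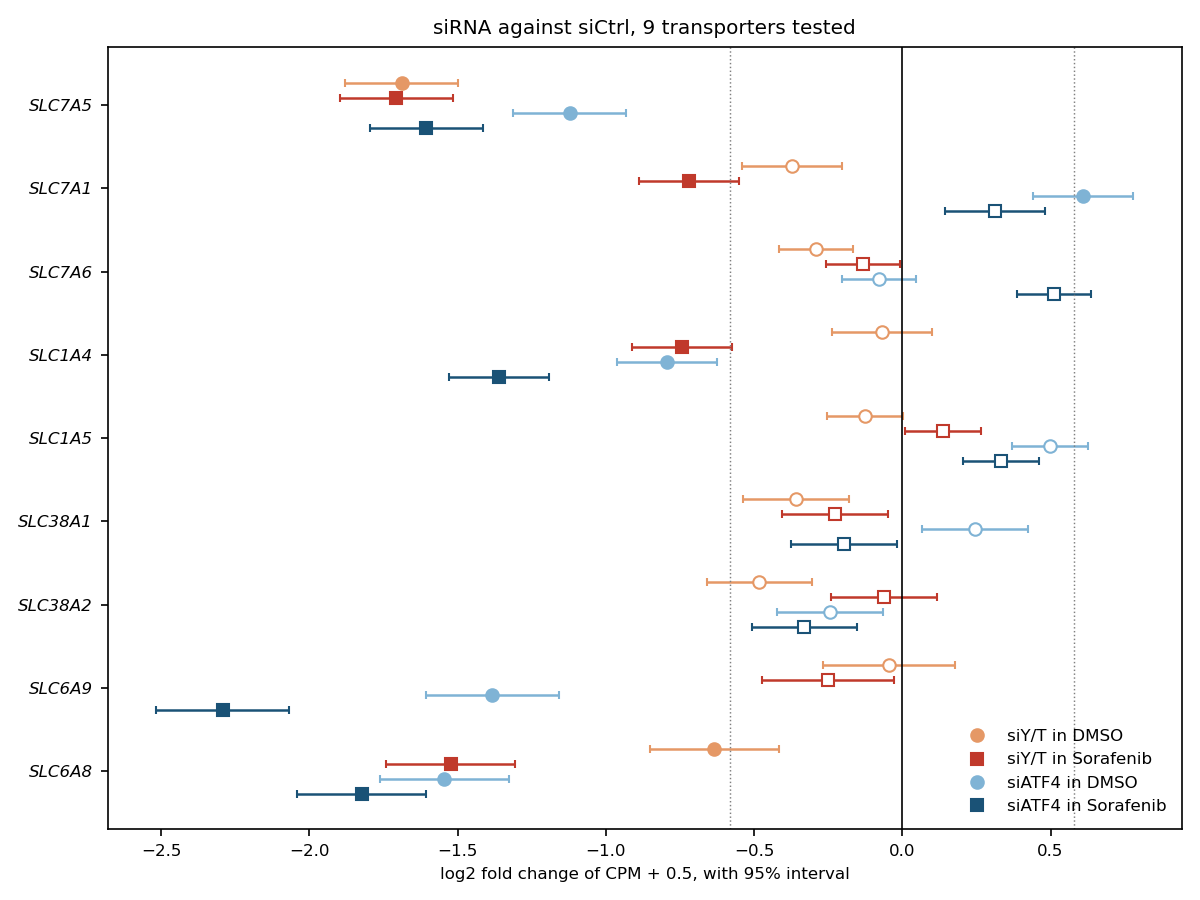
Log2 fold change of CPM + 0.5 against siCtrl (horizontal axis) for the 9 carriers tested (vertical axis), with 95% intervals; circles are DMSO and squares Sorafenib, filled symbols passed both thresholds and dotted lines mark a change of 0.58 in either direction. SLC7A5 and SLC6A8 lie left of -0.58 in all 4 comparisons, SLC6A9 passes that line with siATF4 and not with siY/T, and SLC7A1 lies on opposite sides with siY/T and siATF4.

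Counted over the 9 carriers tested, 2 fell with siY/T in DMSO (SLC7A5, SLC6A8), and of all genes tested 3.61% fell. In Sorafenib 4 fell with siY/T (SLC7A5, SLC7A1, SLC1A4, SLC6A8), beside 3.84% of all genes. No carrier rose with siY/T, beside 11% of all genes in DMSO and 6.11% in Sorafenib. At an unadjusted P under 0.05 alone, 0 of the 9 were higher in DMSO and 1 (SLC1A5) in Sorafenib by limma. By edgeR and DESeq2 0 were higher at that P in either medium, and both called 0 as risen. The median log2 fold change with siY/T was -0.36 over the carriers and 0.07 over all genes in DMSO, and -0.25 and 0.05 in Sorafenib.

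With siATF4, 4 of the 9 fell in DMSO (SLC7A5, SLC1A4, SLC6A9, SLC6A8) and 1 rose (SLC7A1), where 14.1% of all genes fell and 8.57% rose. In Sorafenib the 4 carriers that fell were those named for DMSO, and none rose, beside 18.7% and 10.3% of all genes. At an unadjusted P under 0.05 alone 3 of the 9 were higher with siATF4 in Sorafenib by limma, SLC7A1, SLC7A6 and SLC1A5. By edgeR and by DESeq2 3 were higher at that P too, and both called 0 as risen. No share of all genes was taken at that P. The median over the carriers was -0.24 in DMSO and -0.33 in Sorafenib, with -0.0013 and -0.0082 over all genes. The falls of the carriers were thus confined to SLC7A5, SLC1A4, the low-expressed SLC6A9 and SLC6A8 and, with siY/T in Sorafenib, SLC7A1, and the most abundant carriers SLC38A2 and SLC1A5 were not among them.

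Compared with each other, siY/T cells were lower than siATF4 cells in SLC7A1, SLC1A5 and SLC38A1 and higher in SLC1A4, SLC6A9 and SLC6A8 in DMSO, 3 carriers each, where 13% of all genes were lower and 22.7% higher. In Sorafenib SLC7A1 and SLC7A6 were lower and SLC1A4 and SLC6A9 higher, 2 each, beside 14.8% and 23.7% of all genes. SLC6A9 differed most in this comparison, with log2 fold changes of 1.34 in DMSO and 2.04 in Sorafenib. The call of SLC1A4 in Sorafenib (0.62) was lost with TMM scaling (0.55), with quantile normalization (0.54) and with the count tools (0.56 by edgeR and 0.57 by DESeq2). It was lost too without the first siY/T Srf library (0.54) or the second siATF4 Srf library (0.54). That of SLC7A6 in Sorafenib (-0.64) was lost without the second siY/T Srf library, at -0.56.

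**Figure D5:**
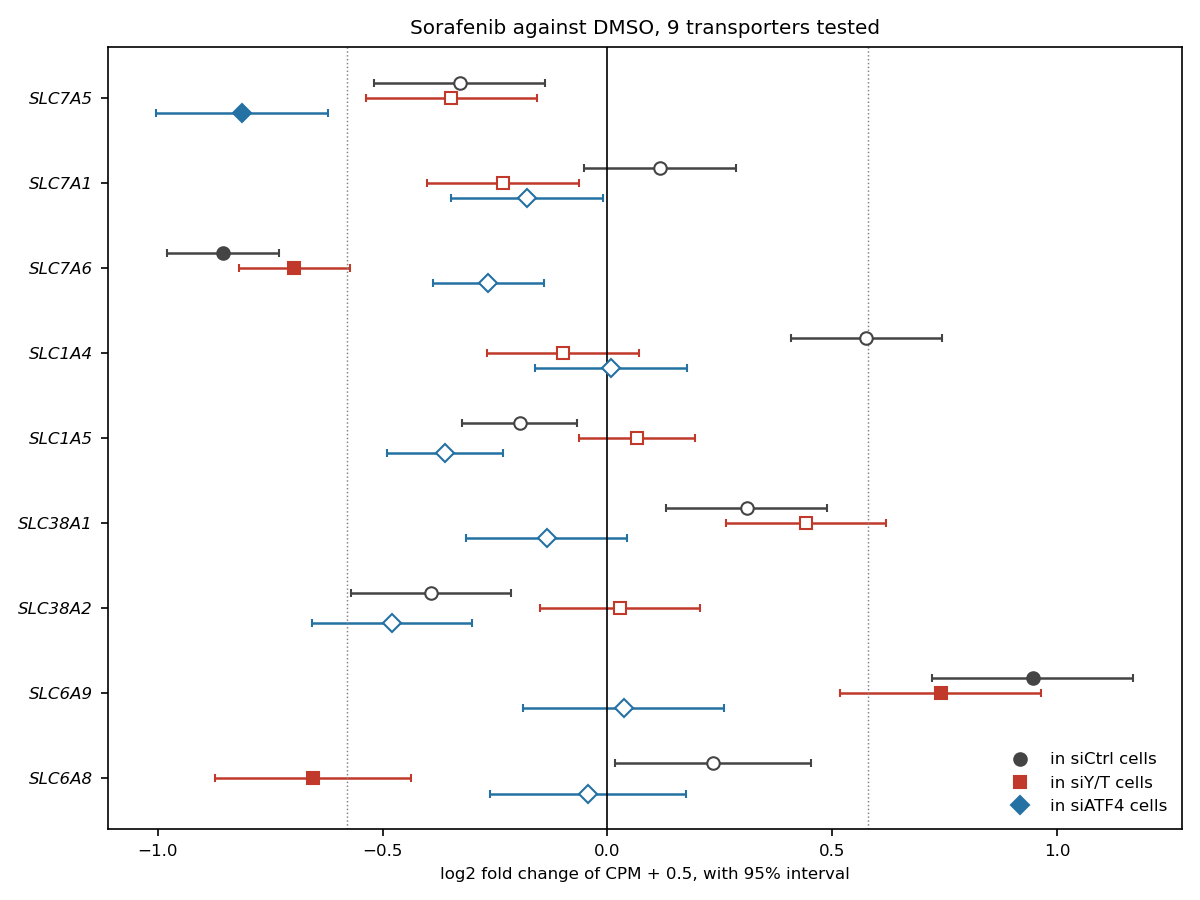
Log2 fold change of CPM + 0.5 with Sorafenib against DMSO (horizontal axis) in siCtrl, siY/T and siATF4 cells for the 9 carriers tested (vertical axis), with 95% intervals; filled symbols passed both thresholds and dotted lines mark a change of 0.58 in either direction. SLC6A9 is to the right in siCtrl and siY/T cells and at 0.04 in siATF4 cells, and SLC7A6 is to the left in siCtrl and siY/T cells.

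In siCtrl cells SLC7A6 fell and SLC6A9 rose, 1 each with Sorafenib, where 5.15% of all genes fell and 12.3% rose. At an unadjusted P under 0.05 alone, limma had 4 of the 9 lower and 4 higher. In siY/T cells SLC7A6 and SLC6A8 fell and SLC6A9 rose, 2 and 1, beside 4.14% and 5.83% of all genes, and at P under 0.05 alone 4 were lower and 2 higher. In siATF4 cells SLC7A5 fell and none rose, beside 2.95% and 5.68%, and at an unadjusted P under 0.05 alone 5 of the 9 were lower and 0 higher by limma, with 0 called as risen by edgeR and DESeq2. The shares in this paragraph are of genes past both thresholds and cannot be set against the counts at P under 0.05 alone.

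Whether an siRNA acted differently in the 2 media was tested directly, at an adjusted p under 0.05. For siY/T this held for 5 carriers, with a more negative effect in Sorafenib for SLC7A1, SLC1A4 and SLC6A8 and a less negative or higher one for SLC1A5 and SLC38A2, and it held for 22% of all genes. For siATF4 it held for 6, with a more negative or lower effect in Sorafenib for SLC7A5, SLC7A1, SLC1A4, SLC38A1 and SLC6A9 and a higher one for SLC7A6, beside 41.1% of all genes. SLC7A1 and SLC1A4 were found for both siRNAs, but the siATF4 difference of SLC7A1 (adjusted p = 0.0474 from limma) was lost in 7 of the fits that left out 1 library, each siCtrl DMSO, siATF4 DMSO and siATF4 Srf library and the second siCtrl Srf library, with adjusted p between 0.0647 and 0.168 from limma. It was also lost without the filter on low values (adjusted p = 0.238 from limma). The 5 of siY/T became 2, SLC1A4 and SLC6A8, without either siCtrl DMSO library or without the second siCtrl Srf library, and 3 without the first siY/T Srf library.

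Likeness between carriers was measured as the root mean square difference of their log2(CPM + 0.5) over the 12 libraries, each gene set to its own mean, and is a description. SLC6A8 was the carrier nearest to SLC7A5 (0.50 on the log2 scale), and 7 other genes lay nearer to SLC7A5 among the 11152 tested genes that averaged 5 CPM or more. SLC1A4 was the carrier nearest to SLC6A8 and SLC6A8 that nearest to SLC1A4 (0.37), and SLC1A4 was the nearest to SLC6A9 (0.51). SLC1A5 and SLC38A1 were each other's nearest (0.28), and SLC1A5 was also nearest to SLC7A1 (0.31) and SLC7A6 (0.31), as SLC38A1 was to SLC38A2 (0.30). Other genes nearer than the nearest carrier numbered 10 for SLC6A8, 546 for SLC6A9 and 1184 for SLC1A4. They numbered 1713 for SLC7A1, 2177 for SLC7A6, 2965 for SLC38A1, 3244 for SLC38A2 and 4324 for SLC1A5. Genes that vary little lie near to each other by this measure. The genes nearest to SLC7A5 were CDC42EP3 (0.41), ANXA1 (0.46), TUBB2B (0.47), ASNS (0.47) and TXNRD1 (0.48). ASNS, asparagine synthetase, was at 94.4 ± 7.37 CPM in siCtrl DMSO, 32.5 ± 5.45 in siY/T DMSO and 35.0 ± 1.12 in siATF4 DMSO (SD, n = 2). In Sorafenib ASNS was at 121.96 ± 2.26, 51.03 ± 9.95 and 32.06 ± 1.11 CPM in the same order. Its mean was thus higher in Sorafenib than in DMSO after siCtrl and siY/T, where the mean of SLC7A5 was lower. After siATF4 the means of both genes were lower in Sorafenib.

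Among 28 other plasma membrane carriers and heavy chains, 7 were expressed highly enough to be tested, SLC3A2, SLC3A1, SLC7A11, SLC6A6, SLC6A15, SLC43A2 and SLC36A4. With siY/T, 1 of them fell in each medium while 3 rose in DMSO and 4 in Sorafenib, beside the shares of all genes given above (3.61% and 11% in DMSO, 3.84% and 6.11% in Sorafenib). In DMSO edgeR and DESeq2 each called 2 as fallen. With siATF4, 3 fell and 2 rose in DMSO, and 4 fell and 0 rose in Sorafenib, where edgeR and DESeq2 also called 0 as risen. At an unadjusted P under 0.05 alone, 2 were higher with siATF4 in Sorafenib by limma, edgeR and DESeq2 alike. No share of all genes was taken at that P. Of all genes 14.1% fell and 8.57% rose with siATF4 in DMSO, and 18.7% and 10.3% in Sorafenib. Sorafenib raised 3 of the 7 after siCtrl and 2 after siY/T, and it lowered 1 in siATF4 cells, where 12.3% and 5.83% of all genes rose and 2.95% fell.

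The taurine carrier SLC6A6 moved in opposite directions with the siRNAs within each medium, which none of the 9 carriers above did past the thresholds. SLC6A6 was at 211 ± 11.9 CPM in siCtrl DMSO, 747 ± 6.26 in siY/T DMSO and 69.7 ± 3.61 in siATF4 DMSO, and at 325 ± 10.8, 925 ± 42.0 and 69.0 ± 2.03 CPM in the same order in Sorafenib (SD, n = 2). It thus rose with siY/T by 1.82 and 1.51 and fell with siATF4 by 1.59 and 2.23, in DMSO and Sorafenib. SLC3A1, the heavy chain of the cystine and dibasic amino acid carrier, showed the same directions at a low level, rising by 1.30 and 1.44 with siY/T and falling by 0.96 and 0.71 with siATF4. SLC43A2, a relative of SLC43A1, rose with siY/T by 1.09 and 0.62 and fell with siATF4 in Sorafenib by 1.09. SLC6A15, a carrier of branched-chain amino acids and proline, rose with Sorafenib by 0.84 in siCtrl and by 1.25 in siY/T cells. The cystine carrier SLC7A11, which like SLC7A5 is a light chain of SLC3A2, fell with both siRNAs in both media, by 1.49 and 1.67 with siY/T and by 0.97 and 2.23 with siATF4.

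Of 7 amino acid carriers of the lysosome, 6 were tested, SLC36A1, SLC38A7, SLC38A9, SLC66A1, CTNS and SLC15A4. Of these 6, 0 passed the thresholds in any comparison of siRNAs or of media, beside 2.95% to 23.7% of all genes in each direction. Their log2 fold changes against siCtrl lay between -0.39 and 0.54. At an unadjusted P under 0.05 alone, 5 of the 6 were higher with siY/T in DMSO, and 4 were higher and 2 lower with siATF4 in DMSO. In Sorafenib 4 were higher with siY/T, and 4 were lower and 2 higher with siATF4. With Sorafenib 1 was lower and 3 were higher after siCtrl, 2 and 3 after siY/T, and 3 and 1 after siATF4. Between siY/T and siATF4 cells 2 were lower and 2 higher in DMSO, and 1 was lower and 4 were higher in Sorafenib. The share of all genes was not taken at P under 0.05 alone. Whether these counts differ from that share is therefore not known. edgeR and DESeq2 called 0 of the 6 in these comparisons as well. The effect of siATF4 differed between the media for 2 of the 6, both lower in Sorafenib, beside 41.1% of all genes.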

How the data were processed

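Poly(A) RNA of HLE cells was sequenced in 12 libraries, 2 for each of 6 groups. According to the methods of the study and the submitters' processing notes, reads were aligned to hg19 with STAR and only uniquely mapped reads were counted on genes. The libraries were stranded, and whether the counting used strand is not given in the sources used here. The deposited values are CPM per Entrez gene, calculated by the authors without a further scaling stated. Every value was a whole multiple of the value of 1 read in its library to within 0.001 reads, so whole reads were recovered for all 12 libraries, 41408348 to 53619732 per library (median 47939445). The labels and the study's methods differ in the number of replicates, the instrument and the concentration of Sorafenib, and the labels were followed.

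The 13515 of 26258 genes that reached 1 CPM in 2 or more libraries were tested with limma 3.58.1 (R 4.3.3) on log2(CPM + 0.5) with an intensity trend, in 1 fit over the 6 groups. The study's own comparisons used edgeR on counts, whereas the deposited unit calls for a test on the log scale. Fold changes on this scale understate those of low genes. A call needed both a log2 fold change of 0.58 or more in size and a P under 0.05, and differences between effects an adjusted p under 0.05. The recovered reads were also tested with edgeR 4.0.16 and DESeq2 1.42.0 as alternatives. Other alternatives were TMM scaling, quantile normalization, other pseudocounts, filters and thresholds, a replicate block, the compared groups alone and leaving out each library. The fits were tested on simulated data. Positions and lengths are from GENCODE 44 on GRCh37, and promoter sequences from RefSeq on GRCh38.p14. The 10 carriers, the other gene lists and the tests were chosen with earlier results of these data known. All 10 carriers are named, and of the other carrier lists up to 6 called genes, those averaging 5 CPM or more whose log2 fold changes were largest, beside the heavy chain SLC3A2 and the members of each list that were tested. No protein sequence was used here.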

Additional observations from a re-analysis of the deposited data

Results flagged for a closer look

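The results below were singled out because the effect of an siRNA differed between Sorafenib and DMSO by a test of the difference itself in limma, with an adjusted p under 0.05. All values are differences of log2 fold changes against siCtrl, Sorafenib minus DMSO. Groups of 2 libraries are too small for a test of single outlying libraries.

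For siY/T, the effect in Sorafenib was lower for SLC6A8 by 0.89 (-0.89, adjusted p = 0.00115 from limma), for SLC1A4 (-0.68, adjusted p = 0.00135 from limma) and for SLC7A1 (-0.35, adjusted p = 0.0391 from limma). It was higher for SLC38A2 (0.42, adjusted p = 0.0224 from limma) and for SLC1A5 (0.26, adjusted p = 0.0410 from limma). The difference of SLC1A5 was lost with quantile normalization (0.19, adjusted p = 0.112 from limma) and with the compared groups alone (adjusted p = 0.0705 from limma). That of SLC7A1 was lost with the compared groups alone (adjusted p = 0.0781 from limma). Without the filter on low values those of SLC1A5, SLC7A1 and SLC38A2 were lost.

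For siATF4, the effect in Sorafenib was lower for SLC6A9 (-0.91, adjusted p = 0.000349 from limma), SLC1A4 (-0.57, adjusted p = 0.00136 from limma) and SLC7A5 (-0.48, adjusted p = 0.00779 from limma). It was also lower for SLC38A1 (-0.44, adjusted p = 0.00891 from limma) and SLC7A1 (-0.30, adjusted p = 0.0474 from limma). It was higher for SLC7A6 (0.59, adjusted p = 0.000113 from limma). The comparisons of both siRNAs share the siCtrl libraries.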

How the results depend on the processing

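Of 1458 values of single carriers recomputed under the alternatives, 1372 kept their direction and their side of the threshold, 46 lost a call, 12 gained one and 28 changed sign, and of 173 recomputed counts 164 stayed within 1.5 times. The carriers with a difference between siY/T effects numbered 5, and 2 with no filter on low values, 3 with the compared groups alone, 2 with the stricter threshold on P and 2 to 5 when a library was left out. For siATF4 they numbered 6, and 3 with no filter, 2 with the stricter threshold and 5 to 6 when a library was left out. Without the filter, SLC7A1, SLC1A5 and SLC38A2 lost the siY/T difference (adjusted p = 0.216, 0.184 and 0.169 in limma), since all 26258 genes then entered the fit.

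Values that changed sign were all short of the thresholds. With quantile normalization they were SLC38A2 with siY/T in Sorafenib (0.0095), SLC1A4 (-0.040) and SLC6A9 (-0.071) with Sorafenib in siATF4 cells, and SLC6A8 between siY/T and siATF4 in Sorafenib (-0.060). SLC1A4 with Sorafenib in siATF4 cells was also -0.019 with TMM scaling, -0.018 by edgeR and -0.023 by DESeq2, and the siY/T difference of SLC7A5 was 0.0080 by DESeq2; the cause was not tested.

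When single libraries were left out, SLC1A4 ranged from -0.065 to 0.082 with Sorafenib in siATF4 cells and from -0.16 to 0.025 with siY/T in DMSO. SLC6A9 ranged from -0.060 to 0.13 with Sorafenib in siATF4 cells and from -0.092 to 0.00037 with siY/T in DMSO. SLC38A2 ranged from -0.12 to 0.17 with Sorafenib in siY/T cells and from -0.21 to 0.083 with siY/T in Sorafenib. SLC1A5 ranged from -0.010 to 0.14 with Sorafenib in siY/T cells, and SLC6A8 from -0.16 to 0.073 in siATF4 cells. Between siY/T and siATF4 in Sorafenib, SLC7A5 ranged from -0.25 to 0.050 and SLC38A1 from -0.15 to 0.093, and the siY/T difference from -0.17 to 0.13 for SLC7A5 and from -0.00010 to 0.26 for SLC38A1.

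Whether the replicate numbers pair the samples was left undecided by the correlations of replicate 1 minus replicate 2 between groups. Only 3 of 15 pairs of groups had a correlation over 0.1 (range -0.282 to 0.193). Pairs within a medium were all positive, from 0.0358 to 0.193, and pairs across the media ran from -0.282 to 0.0054. With the replicate block, 4 carriers instead of 5 had a siY/T difference and 5 instead of 6 a siATF4 difference, SLC7A1 being lost in both (adjusted p = 0.0508 and 0.0589 in limma), and the other 9 counts were 2, 5, 4, 4, 2, 3, 1, 6 and 4 as without it. The call of SLC6A8 between siY/T and siATF4 in DMSO was lost with quantile normalization (0.579). With 2 libraries a group, small changes and those of SLC43A1, at 3 to 11 reads, were beyond the reach of these data.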
